A study of Mus musculus with 12 samples.

Results

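The comparison set the Sertoli cell fraction of 3 mice labelled TAp73 knockout against the same fraction of 3 mice labelled wildtype by their source name, 1 array per mouse, which is 6 of the 12 arrays of the series. The other 6 arrays hold the germ cell fraction of the same mice. All mice were male C57BL/6J and no treatment is stated. The knockout mice were mouse 120 (4 months old), mouse 86 and mouse 72 (both 8 months). The control mice were mouse 99 (5 months), mouse 73 and mouse 74 (both 8 months). Mouse 99 is titled WT, but the titles of mice 73 and 74 say het, so by their titles 2 of the 3 controls may carry 1 knockout allele. The labels do not say which part of the Trp73 locus was removed, nor how the fractions were separated. Slide 1 held mice 120 and 99, slide 2 mice 86 and 73, and slide 3 mice 72 and 74, so each slide carried 1 mouse of each genotype. The ages were matched within slides 2 and 3, and both younger mice were on slide 1. Of 39429 probes, 24920 cleared the scanner's background flag (well above background) on each of the 3 arrays of the knockout or of the control group. With the probe of highest mean over the 12 arrays kept for each gene, they stood for 20361 of 32496 genes, and 14202 of these had a RefSeq symbol. Values below are log2 signals relative to the 75th percentile of each array. Values for single arrays are given in the order 120, 86 and 72 for the knockout and 99, 73 and 74 for the control, and differences are knockout minus control on the log2 scale with their standard error (SE) from the fit. That fit pooled the spread over all 12 arrays, so SEs, intervals and p also reflect the spread among the germ arrays.

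TAp73 is the full form of p73, the product of Trp73, with an activation domain that lets this relative of p53 switch on its targets. Sertoli cells are the somatic cells of the seminiferous tubule: they form the blood-testis barrier, hold the developing germ cells by specialised junctions, feed them with lactate and engulf the residual bodies that spermatids shed. Germ cells pass from spermatogonia through meiotic spermatocytes to round and then elongating spermatids, which replace histones by transition proteins and protamines. Contractile peritubular myoid cells and fibroblasts surround the tubule, and Leydig cells between the tubules make androgen. Germ cell adhesion and maturation are the subject named in the title of the study, and the Sertoli fraction bears on the somatic side of that question.

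Trp73 itself was not lower on the arrays labelled knockout, except that the probe kept for it differed by -0.53 under normexp background correction. Its brightest probe read -2.91, -2.82 and -2.72 in the knockout and -3.56, -4.01 and -2.13 in the control. The groups overlapped, and the difference was 0.42 ± 0.49 (SE; limma, unadjusted p = 0.416). Another probe, brighter on these knockout arrays, read -2.04, -1.52 and -1.70 in the knockout and -9.42, -2.50 and -3.22 in the control, where the array of mouse 99 was not well above background. Its difference was 3.29 ± 1.77 in a fit of every probe. The dimmest probe, at -5.43, -5.82 and -5.55 in the knockout, failed the background flag on all control arrays, where it read -8.52, -6.67 and -5.39. Since the probes' place relative to the removed part is not known, they do not check the labels, and none of them separated the genotypes in the direction of the label. The p53 family members were measured too. Trp53 read -0.48, -2.05 and -1.44 in the knockout and -0.55, -5.05 and -1.01 in the control, and the low arrays were the pair on slide 2. Trp63 read -0.25, 0.05 and 0.34 against 0.11, -0.03 and 1.43, and a dimmer probe of it differed in the other direction.

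The cell type markers described a fraction rich in tubule wall and stromal transcripts. In the controls, 15132 of 20361 genes (74.3%) differed between the Sertoli and the germ fraction at an adjusted p of 0.05 (limma, Benjamini-Hochberg), 10005 of them (49.1%) higher and 5127 (25.2%) lower in the Sertoli fraction. With each array centred on its median instead, the split was 12758 higher and 3606 lower. All 15 fibroblast markers tested and 10 of 11 peritubular myoid markers were called higher in the Sertoli fraction, with medians of 6.36 and 5.79 on the log2 scale. All 18 elongating spermatid, 12 round spermatid and 16 spermatocyte markers tested were called lower, with medians of -9.20, -7.78 and -5.00. Of the 36 Sertoli cell markers listed, 33 passed the filter, and Amh, Fshr (the receptor of follicle stimulating hormone) and Tsx did not. Of the 33, 11 were called higher and 16 lower in the Sertoli fraction against germ, with a median of -0.81, beside a median of 0.72 over all genes. Higher were Gata4 (3.1), Sox9 (1.43), Wt1 (0.63), Inhbb (3.39) and Vim (3.77), and lower were Rhox5 (-5.28), Cst9 (-8.03), Cst12 (-4.47), Gata1 (-4.35), Amhr2 (-4.40), Defb19 (-3.99), Inha (-2.65) and Cldn11 (-1.98). More of the Sertoli markers were thus called higher in the fraction labelled germ than in the one labelled Sertoli, and the fraction is called Sertoli here after its label only.

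**Figure D1:**
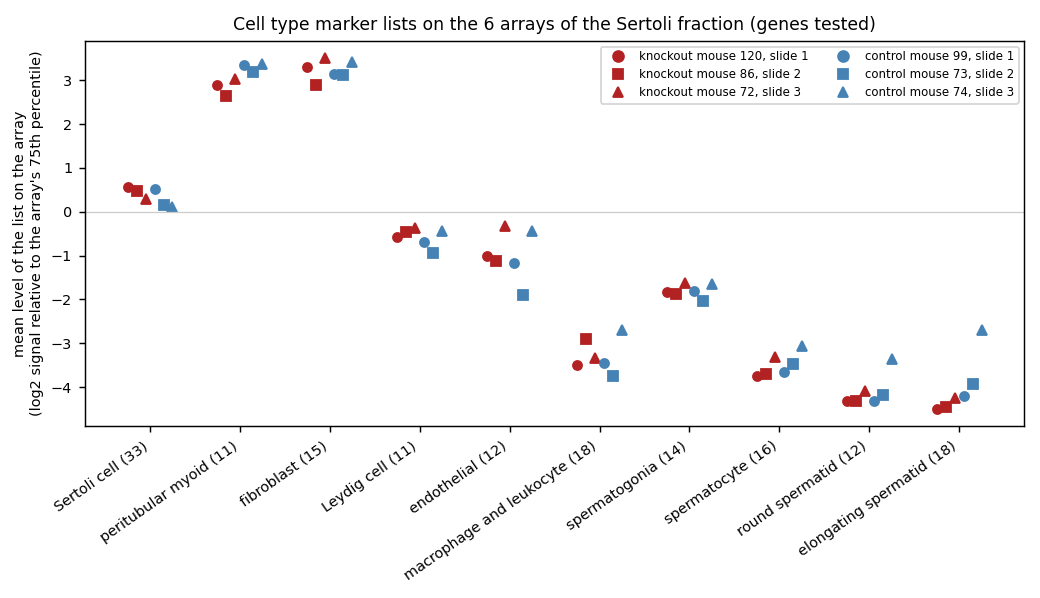
Mean level of 10 cell type marker lists (vertical axis, log2 signal relative to the 75th percentile of the array) on the 6 arrays of the Sertoli fraction, with knockout in red, control in blue and a symbol for each slide; numbers in parentheses are genes tested. The myoid list is lower on all 3 knockout arrays (2.63 to 3.02) than on the control arrays (3.19 to 3.37), and mouse 74 stands above the other arrays for both spermatid lists.

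The control arrays differed more among themselves than the knockout arrays. Across genes, which are not independent replicates, Pearson's r was 0.990 to 0.994 between knockout arrays and 0.965 to 0.987 between control arrays, and the array of mouse 99 was closer to the knockout arrays (0.990 to 0.996) than to the other controls (0.977 to 0.987). The SD over 3 mice had a median of 0.18 in the knockout and 0.35 in the control, and it was larger in the control for 16260 genes (79.9%). Mouse 74 had the lowest 75th percentile of raw signal (1355, against 2863 to 3929 on the other arrays), and 19.6% of genes were more than 1 log2 unit from the mean of the other controls there, against 11.2% in mouse 73 and 4.15% in mouse 99. The share of probes well above background was 64.1% to 68.3% over the 6 arrays.

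No gene passed an adjusted p of 0.05 between knockout and control in the Sertoli fraction (0 of 20361, 0%; smallest adjusted p 0.806, limma with Benjamini-Hochberg adjustment). At an unadjusted p under 0.05 there were 468 genes (2.3%), 145 higher (0.712%) and 323 lower (1.59%) in the knockout. The difference was below 0 in 12534 genes (61.6%) and above 0 in 7827 (38.4%), with a median of -0.07 over all genes, and this tilt depended on the scaling: after quantile normalisation the median was -0.005 and the unadjusted calls were 214 higher and 264 lower, and after median centring 158 higher and 182 lower. With normexp background correction the median was -0.181, with 47 higher and 2045 lower. The arrays of the 2 groups did not overlap for 1481 genes (7.27%), with the knockout higher in 447 (2.2%) and lower in 1034 (5.08%). An exact permutation test of 3 against 3 mice cannot give a two-sided p below 0.1 for a single gene.

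The precision sets what could have been seen. The 95% interval of a gene's difference had a median half-width of 0.58 log2 units (quartiles 0.44 and 0.82), and for 14132 genes (69.4%) the whole interval lay within 1 log2 unit of 0. The measured difference had a median size of 0.17, and 95% of genes lay between -0.65 and 0.59. Only 200 genes (0.982%) differed by more than 1 log2 unit in either direction. Without mouse 99 the unadjusted calls were 1553 and 1 gene passed the adjusted threshold: Cypt4, lower in the knockout with an adjusted p of 0.00767 (limma). With mouse 99 as the only control, and mice 73 and 74 left out, there were 178 unadjusted calls and none passed.

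**Figure D2:**
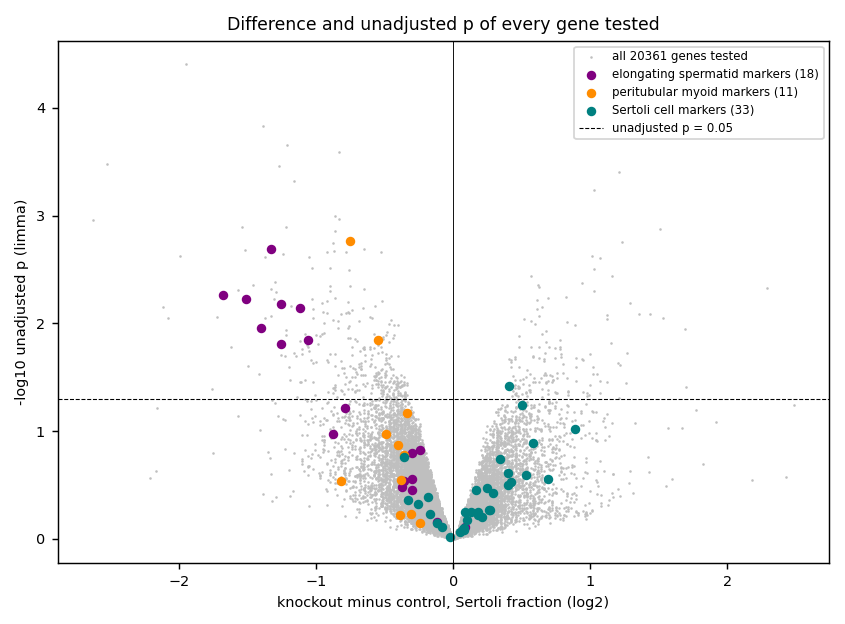
Difference between knockout and control in the Sertoli fraction (horizontal axis, log2) against -log10 of the unadjusted limma p (vertical axis) for the 20361 genes tested, with marker lists in colour and a dashed line at the unadjusted threshold of 0.05. Most elongating spermatid and all myoid markers lie left of 0 and most Sertoli markers right of it, and no gene passed after adjustment.

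Transcripts of elongating spermatids had the lowest median difference of the 33 lists with all mice included, though not without mouse 74. Of the 24 markers listed, 18 passed the filter, and 17 of the 18 were lower, with a median of -0.83 beside -0.07 over all genes; no member passed the adjusted threshold. An unadjusted p under 0.05 was reached by 8 of the 18, all lower (1.59% of all genes were), and the arrays did not overlap for 9, all lower (5.08% of all genes). Akap3, Cabs1, Oaz3, Odf1, Tssk2 and Tssk3 did not pass the filter. The levels were low on every array of this fraction: the mean of the list was -4.50, -4.45 and -4.26 in the knockout and -4.21, -3.93 and -2.71 in the control, against 5.08 to 5.52 over the arrays of the germ fraction. In bulk RNA, fewer spermatids in the fraction and less RNA per spermatid cannot be told apart.

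The protamines, which pack the DNA of the sperm head, and the transition proteins, which precede them, carried this pattern. Prm1 read -2.30, -2.34 and -1.84 in the knockout and -1.50, -1.09 and 0.62 in the control, a difference of -1.51 ± 0.44 (unadjusted p = 0.0059). Tnp2, a transition protein, read -3.69, -3.78 and -3.81 against -2.98, -2.84 and -1.47, a difference of -1.33 ± 0.33 (unadjusted p = 0.00206). Prm3 read -7.04, -7.53 and -7.02, not well above background on any knockout array, against -6.54, -5.93 and -4.07, where all 3 arrays were. It thus passed the filter only through the control group. For all 3 genes every control lay above every knockout, and mouse 74 was the highest by more than 1 log2 unit. Prm2 (-1.26 ± 0.44), Tnp1 (-1.12 ± 0.34), Smcp, a protein of the sperm mitochondrial sheath (-1.40 ± 0.46), Akap4, a scaffold of the tail's fibrous sheath (-1.26 ± 0.38), and Gsg1 (-1.06 ± 0.36) had the same order. Odf2, of the outer dense fibres of the tail, differed by -0.24 ± 0.16, with probes that disagreed in sign, and Tssk6, a spermatid kinase, by -0.30 ± 0.20. Hspa1l, a spermatid chaperone, was the 1 member above 0, at 0.09 ± 0.32.

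Promoters are shown for Prm1 and Tnp2, on chromosome 16, which were well above background on all 6 arrays and did not overlap between the groups, because haploid genes of this kind are known targets of the activator CREM, which binds cAMP response elements. The sequences are RefSeq's for GRCm38.p6, 300 bases around the start of the gene, 5′ to 3′ on the minus strand of the genome, and capitals mark a match to TGACNTCA on either strand.
Prm1, chr16:10796774-10797073: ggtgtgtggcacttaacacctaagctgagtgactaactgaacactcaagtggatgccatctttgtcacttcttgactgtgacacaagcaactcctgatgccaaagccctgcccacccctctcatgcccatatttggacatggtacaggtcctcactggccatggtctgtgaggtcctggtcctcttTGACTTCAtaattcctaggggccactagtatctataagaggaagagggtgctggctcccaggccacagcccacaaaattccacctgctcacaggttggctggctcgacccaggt
Tnp2, chr16:10788606-10788905: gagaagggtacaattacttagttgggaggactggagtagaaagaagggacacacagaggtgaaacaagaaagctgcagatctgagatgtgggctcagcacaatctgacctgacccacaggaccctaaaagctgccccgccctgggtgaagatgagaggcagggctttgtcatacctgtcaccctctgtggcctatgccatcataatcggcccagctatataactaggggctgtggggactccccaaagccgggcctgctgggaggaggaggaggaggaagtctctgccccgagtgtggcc
The Prm1 window holds 1 match and the Tnp2 window 0. Of the 18 markers tested, 7 have a match in at least 1 of their promoter windows, against 2 of the 8 myoid markers in the table and 2708 of its 27025 genes; by window, 8.83% of all 32851 hold it.

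Slide by slide, the median of the elongating spermatid list was -0.40 (mouse 120 minus 99), -0.41 (86 minus 73) and -1.88 (72 minus 74), and 12 of the 18 members were lower on all 3 slides (18.9% of all genes were). Against single control mice, the mean of the knockouts was lower in 13 of 18 members against mouse 99 (median -0.13), 12 against mouse 73 (-0.42) and 18 against mouse 74 (-1.95). Without mouse 74 the list's median was -0.25, with 12 of 18 members below 0 and 8 at an unadjusted p under 0.05. With mouse 99 as the only control it was -0.13, with 13 below 0 and 3 at that p. The array of mouse 74, highest for these transcripts, was also the one with the lowest raw signal. The part of spermatid RNA in the differences of other germ cell genes was not tested.

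**Figure D3:**
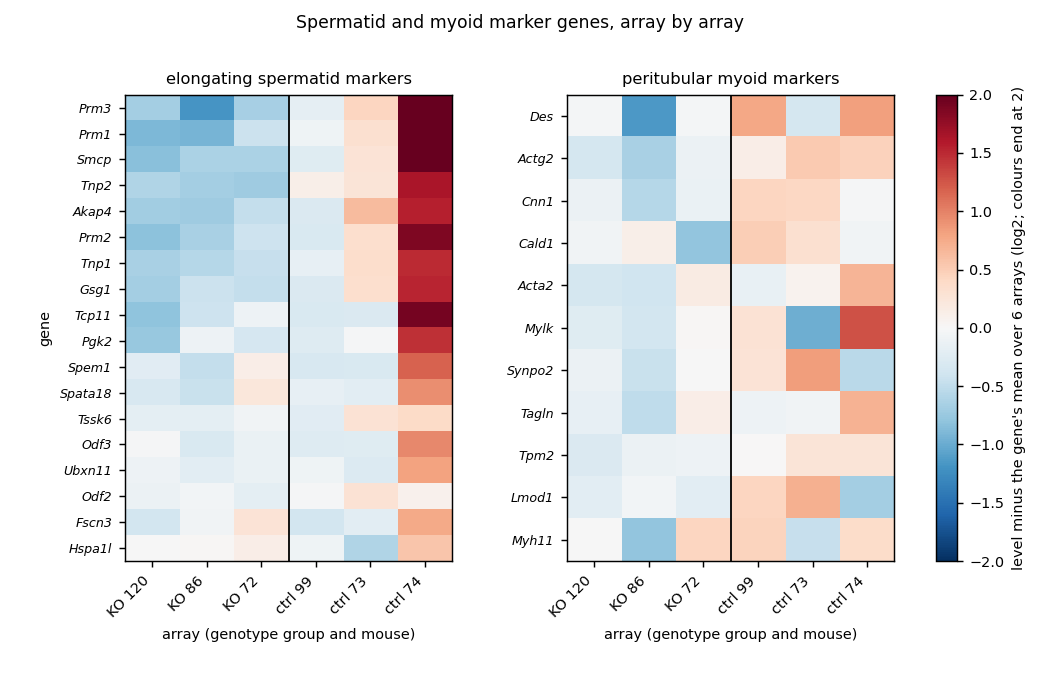
Level of each tested elongating spermatid marker (left) and peritubular myoid marker (right) on each of the 6 arrays of the Sertoli fraction, as the difference from the gene's own mean over the 6 arrays (colour, log2, ending at 2). The left panel is darkest in the column of control mouse 74, and the myoid differences are spread over the 3 controls.

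Earlier germ cell stages gave medians closer to that of all genes, though not under normexp. Of 12 round spermatid markers tested (18 listed), 8 were lower (61.6% of all genes were), with a median of -0.11. An unadjusted p under 0.05 was reached by 2, Spaca7 (-1.03 ± 0.30) and the sperm glycolytic enzyme Gapdhs (-1.08 ± 0.49). Gapdhs was well above background on 2 of the 3 knockout arrays, so it passed the filter only through the control group. Of all genes, 1.59% were lower at that p. The slide medians of the list were -0.03, 0.01 and -0.76, and under normexp 11 of 12 were lower, with a median of -0.92 and 7 at that p. Of 16 spermatocyte markers tested (30 listed), 9 were lower and the median was 0.00; under normexp all 16 were lower, with a median of -1.04. Ldhc, the lactate dehydrogenase subunit of germ cells, read -5.77, -5.54 and -4.70 in the knockout and -4.87, -4.09 and -2.18 in the control, a difference of -1.62 ± 0.57 (unadjusted p = 0.0165). Of 14 spermatogonia markers tested (18 listed), 7 were higher and 7 lower; under normexp 11 were lower (median -0.35). Tex19.1 and Kit, the receptor of differentiating spermatogonia, were at 1.16 ± 0.31 and 0.66 ± 0.35, and both turned negative under normexp.

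Peritubular myoid genes were lower in the knockout for 11 of 11 members, all of which passed the filter (61.6% of all genes were lower). The median was -0.39, the slide medians were -0.48, -0.47 and -0.52, and 7 of 11 members were lower on all 3 slides (18.9% of all genes). No member passed the adjusted threshold, and 2 reached an unadjusted p under 0.05 (lower in 1.59% of all genes). Actg2, the enteric smooth muscle actin, read 5.57, 5.26 and 5.79 in the knockout and 6.05, 6.44 and 6.38 in the control, a difference of -0.75 ± 0.18 (unadjusted p = 0.00174). Cnn1, the actin-binding protein calponin, read 5.73, 5.27 and 5.72 against 6.27, 6.26 and 5.83, a difference of -0.55 ± 0.19 (unadjusted p = 0.0142). The groups did not overlap for either gene, which the choice by p favours, and the lowest array of both was that of mouse 86. Tpm2, a tropomyosin, was also lower without overlap (-0.34 ± 0.17). The smooth muscle actin Acta2, among the brightest genes of the fraction at 6.89 to 7.97, differed by -0.40 ± 0.25, Tagln by -0.36 ± 0.24 and the intermediate filament protein desmin (Des) by -0.82 ± 0.73, and these 3 overlapped between the groups. The median was below 0 against each control mouse, at -0.51 (mouse 99), -0.42 (mouse 73) and -0.49 (mouse 74). After quantile normalisation it was -0.26, with 9 of 11 members below 0 and 1 at an unadjusted p under 0.05.

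Markers of the cells around the tubule did not all move in this way. Of 15 fibroblast markers, 9 were higher and 6 lower (median 0.12), with the collagen gene Col1a2 at -0.56 ± 0.36 and Mgp, matrix Gla protein, at 0.39 ± 0.25. Of 12 endothelial markers 10 were higher (38.4% of all genes were), with a median of 0.37. The tight junction protein Cldn5 was at 0.83 ± 0.39 and the receptor Tie1 at 0.87 ± 0.65, and no endothelial marker had an unadjusted p under 0.05. Without mouse 73 the endothelial median was 0.03, without mouse 72 0.10 and without mouse 74 0.60; under normexp it was 0, and against mouse 74 alone it was -0.43 with 9 of 12 lower. Of 11 Leydig cell markers tested (16 listed), 8 were higher (38.4% of all genes were), with a median of 0.10. Cyp11a1, the enzyme that opens steroid synthesis, read -0.03, 0.41 and -0.17 in the knockout and -0.29, -1.19 and -1.02 in the control, a difference of 0.90 ± 0.33 (unadjusted p = 0.021), and Akr1b7, an aldo-keto reductase, differed by 1.02 ± 0.40. Neither overlapped between the groups (2.2% of all genes were higher without overlap). As many members, 2, were lower without overlap (5.08% of all genes were), among them Fdx1 at -0.24 ± 0.17. The Leydig markers Insl3 and Lhcgr did not pass the filter. Of 18 macrophage and leukocyte markers tested (29 listed), 11 were higher, none of them under normexp, and the slide medians ran from -0.78 to 0.60; Ptprc (CD45) and Cd68 did not pass the filter. The red cell and epididymis lists kept 4 of 10 and 3 of 11 members, with medians of -0.18 and -0.21.

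The Sertoli cell markers were mostly somewhat higher in the knockout. Of the 33 tested, 25 were higher (38.4% of all genes were) and 8 lower, with a median of 0.18. An unadjusted p under 0.05 was reached by 1 member, higher in the knockout (0.712% of all genes were higher at that p). That member, Amhr2, the receptor of anti-Mullerian hormone, read 1.14, 0.86 and 0.91 in the knockout and 0.74, 0.37 and 0.57 in the control, a difference of 0.41 ± 0.17. Its groups did not overlap. The median turned to -0.10 when mouse 99 was the only control. Against single controls the medians were -0.10 (mouse 99), 0.27 (mouse 73) and 0.40 (mouse 74).

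Single Sertoli markers are given by role. Among transcription factors, Sox9, which starts Sertoli cell fate, differed by 0.21 ± 0.41, Wt1 by 0.17 ± 0.18, Gata4 by 0.27 ± 0.43, Gata1 by 0.58 ± 0.35, Dmrt1 by -0.33 ± 0.41, Nr5a1 by 0.09 ± 0.16, Etv5 by -0.18 ± 0.21, Hopx by 0.25 ± 0.24, Rhox5 by 0.10 ± 0.23 and Rhox8, whose probes disagreed in sign, by -0.02 ± 0.57. Nr0b1 read -5.99, -6.21 and -5.67 in the knockout and -6.31, -6.71 and -6.36 in the control, where 1 array was well above background, a difference of 0.50 ± 0.24. Among secreted products, Clu (clusterin) differed by 0.34 ± 0.24, Trf (transferrin) by 0.18 ± 0.33, Shbg by 0.53 ± 0.45, the cystatins Cst9 and Cst12 by 0.40 ± 0.38 and 0.42 ± 0.38, the inhibin subunits Inha and Inhbb by 0.18 ± 0.30 and 0.26 ± 0.40, Dhh by 0.29 ± 0.31, and the defensins Defb19 and Defb36 by 0.08 ± 0.33 and 0.13 ± 0.21. Of the structural and other markers, Cldn11, a claudin of the blood-testis barrier, differed by 0.69 ± 0.60, Tjp1 by 0.05 ± 0.28, the actin bundler Espn by -0.12 ± 0.32, the intermediate filament genes Vim and Krt18 by -0.17 ± 0.31 and 0.89 ± 0.49, Lgals1 by -0.36 ± 0.25, Ctsl by -0.08 ± 0.29, Gstm6 by 0.07 ± 0.28, Drd4 by -0.26 ± 0.36 and Aard by 0.08 ± 0.35. None of these reached an unadjusted p under 0.05.

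Factors by which Sertoli cells support germ cells included 3 members at low unadjusted p. Of 28 tested, 12 were higher and 16 lower, with a median of -0.10, and the 3 were lower, as were 1.59% of all genes at that p. Nrg1, a ligand of ErbB receptors, read -0.16, -0.69 and -0.91 in the knockout and 0.18, 0.25 and 0.33 in the control, a difference of -0.84 ± 0.27 (unadjusted p = 0.011). Cxcl12, the chemokine that binds CXCR4, read 5.40, 5.08 and 4.58 against 5.48, 5.70 and 5.81, a difference of -0.65 ± 0.23 (unadjusted p = 0.0166). Tgfb3, a regulator of the barrier's junctions, read 4.11, 3.91 and 3.95 against 4.67, 5.05 and 4.25, a difference of -0.67 ± 0.26 (unadjusted p = 0.0264). All controls of these 3 genes lay above all knockouts (5.08% of all genes were lower without overlap), which the choice by p favours. For Cxcl12, knockout mouse 120 was just below control mouse 99. Stromal cells, whose markers were abundant in this fraction, can also make Cxcl12 and Tgfb3, and the part of those cells in the 2 differences was not tested.

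The adhesion genes, which the title of the series brings up, gave medians close to that of all genes with all 3 controls in the fit. In the adherens junction, ectoplasmic specialization and desmosome list 15 of 25 were lower (median -0.05), with the plakophilin Pkp2 at -0.40 ± 0.24, desmoplakin (Dsp) at -0.62 ± 0.37 and the actinin Actn4 at -0.28 ± 0.17. Of 13 tight junction genes 9 were higher (median 0.10), with cingulin (Cgn) at 0.53 ± 0.28. Of 23 integrin and focal adhesion genes 16 were lower (median -0.12), of 25 basement membrane genes 17 (-0.05), with the laminin chain Lamb3 at -0.49 ± 0.26, and of 27 matrix and lysosomal peptidases 19 (-0.04). Of all genes, 61.6% were lower. No member of these 5 lists reached an unadjusted p under 0.05. Against mouse 99 alone, 22 of the 25 adherens junction genes (median -0.22), 19 of the 23 integrin genes (-0.15) and 18 of the 25 basement membrane genes (-0.18) were lower, beside 8 of the 27 peptidases (0.03) and a median of 0.02 over all genes. Peptidase inhibitors, which guard adhesion proteins from cleavage, were 14 higher and 13 lower (median 0.01). Among them the acrosin inhibitor Spink2, itself a germ cell gene, read -2.13, -2.36 and -2.29 against -2.08, -1.39 and -1.38 (-0.65 ± 0.23), and Serpinb6a (-0.43 ± 0.22) and Timp2 (-0.43 ± 0.22) were also lower without overlap.

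Targets of the p53 family had a median near that of all genes. Of 26 tested, 11 were higher and 15 lower (median -0.04), and for 17 of the 26 the 95% interval lay within 1 log2 unit of 0 (69.4% of all genes). Against mouse 99 alone, the control titled WT, 21 were lower (median -0.11, beside 0.02 over all genes, of which 9367 were lower). Perp, a desmosomal and apoptotic target, read -0.46, 0.34 and -1.16 in the knockout and 0.55, 0.95 and -0.17 in the control, a difference of -0.87 ± 0.37 (unadjusted p = 0.0397) with overlap. Bax, the pore-forming apoptosis effector, differed by -0.33 ± 0.21. In the multiciliation list, a programme that p73 is known to drive in ciliated epithelia, 7 of 13 genes tested were higher (median 0.08). Under normexp 0 of 13 were above 0, with a median of -0.91. Ak7 (1.21 ± 0.24) was the 1 member at an unadjusted p under 0.05. Foxj1, the programme's transcription factor, was at 0.28 ± 0.17. These 2 genes were higher without overlap (2.2% of all genes were), and both passed the filter only through the knockout group. E2f5 was at 0.35 ± 0.26. The tektin Tekt1, which passed only through the control group, was at -0.96 ± 0.55.

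Several lists followed the division and supply of cells. Mitotic genes were lower for 18 of 21 (median -0.28), among them the kinase Aurka (-0.51 ± 0.22, unadjusted p = 0.0438, no overlap), the cyclin Ccnb2 (-0.51 ± 0.23) and the proliferation marker Mki67 (-0.40 ± 0.21), and 10 of the 21 were lower on all 3 slides (18.9% of all genes were). Antioxidant and glutathione genes were lower for 22 of 26 (61.6% of all genes were), with a median of -0.16, but under normexp the median was 0.01. Apoptosis genes (16 of 27 lower, median -0.04) held the survival genes Birc5 (-0.50 ± 0.21) and Bcl2l1 (-0.35 ± 0.16) at unadjusted p of 0.0351 and 0.0475; the probes of Bcl2l1 disagreed in sign, and 0 members reached a p under 0.05 with the 6 Sertoli arrays fitted alone. Immediate early genes (11 of 23 lower) included Jun at -0.45 ± 0.18, and heat shock genes (8 of 13 lower, median -0.20) Cryab at -0.40 ± 0.17; for both, every control was above every knockout.

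In sugar, lactate and pyruvate supply 12 of 21 were lower (61.6% of all genes were), with a median of -0.07. Its 3 members at an unadjusted p under 0.05 were Slc2a5, Ldhc and Gapdhs, the last 2 being germ cell isoforms. All 3 were lower, as were 1.59% of all genes at that p. Retinoid genes were lower for 10 of 18, with the retinol dehydrogenase Rdh10 at 0.44 ± 0.28 and the receptor Rarb at 0.97 ± 0.70. Androgen and FSH signalling was lower for 7 of 15 (median 0.00), phagocytosis for 7 of 14 (0.00), with the bridging protein Mfge8 at -0.49 ± 0.25, cholesterol synthesis for 9 of 20 (0.02), and cytokine and interferon genes for 10 of 15 (-0.25), with Ccl5 at -0.86 ± 0.61. Against mouse 99 alone the cytokine list turned, with 11 of 15 higher and a median of 0.27.

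**Figure D4:**
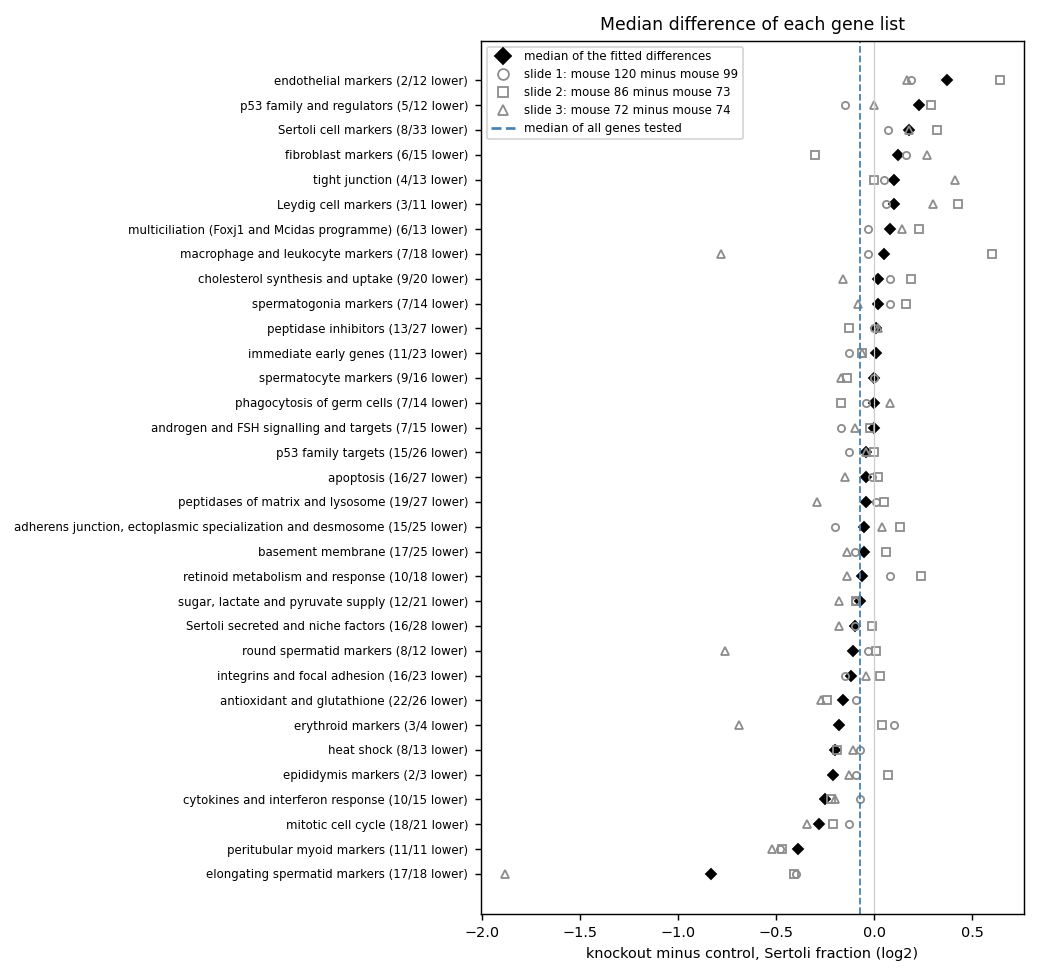
Median difference between knockout and control in the Sertoli fraction for 33 gene lists (horizontal axis, log2): black diamonds are medians of the fitted differences, open symbols the medians within each slide, and the dashed line the median of all genes, -0.07. The elongating spermatid list lies lowest at -0.83 with slide 3 at -1.88, and the myoid list at -0.39 has its 3 slides between -0.52 and -0.47.

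Among single genes with a symbol, the smallest unadjusted p belonged to Slc2a5, the fructose transporter of spermatids among other cells. It read -5.56, -5.17 and -5.76 in the knockout and -4.49, -4.15 and -3.67 in the control, a difference of -1.39 ± 0.24 (unadjusted p = 0.000149, adjusted p = 1 by limma with Benjamini-Hochberg adjustment). Every control was above every knockout, and it was lower on all 3 slides, by -1.08, -1.02 and -2.09. Other solute carriers were also among the 12 lower genes with the smallest p, and the share of such carriers over all genes was not counted. Slc45a1 read -6.39, -6.56 and -6.31 against -5.21, -5.17 and -5.24 (-1.21 ± 0.22), Slc22a18 -0.63, -0.26 and -0.55 against 0.22, 0.41 and 0.44 (-0.83 ± 0.16), and Slc16a11 -3.76, -3.35 and -3.42 against -2.79, -2.61 and -2.49 (-0.88 ± 0.21). In these 3 genes the control arrays lay closer to each other than to any knockout array. The choice by p favours such separation, here and in Slc2a5. Slc45a1 was well above background on 2 of the 3 knockout arrays, so it passed the filter only through the control group.

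Germ cell genes were also among the 12. Cypt4, a cysteine-rich protein of spermatids, was not well above background on any knockout array (-7.60, -7.49 and -7.88) and read -6.57, -4.73 and -4.09 in the control. It passed the filter only through the control group. Its mean was at least 3.30-fold lower in the knockout, a bound that carries no sampling error. With mouse 99 as the only control its difference was -1.08. The spermatid histone variant H2al2a was likewise below that level in the knockout and passed only through the control group, with a bound of the same kind of 2.16-fold lower. Cypt12, chosen for its agreement between slides, read -6.71, -6.49 and -6.51 against -5.93, -5.37 and -4.29. Mouse 74 was the highest array for all 3, as it was for the spermatid list. The remaining lower genes were Npnt, an integrin ligand of the basement membrane (-1.16 ± 0.23), the histone H3c1 (-0.86 ± 0.19), Ttll11, a tubulin polyglutamylase (-0.83 ± 0.19), Oxct2b, a ketone body enzyme of the testis (-1.22 ± 0.28), Dydc2 (-0.86 ± 0.20) and Actg2, and none of them overlapped between the groups. Genes chosen by p on the same arrays tend not to overlap, so this is not separate evidence. Oxct2b also passed the filter only through the control group, with 2 of the 3 knockout arrays well above background.

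The 12 higher genes with the smallest p were mostly dim. Ak7, an adenylate kinase of motile cilia and flagella, read -5.76, -5.85 and -5.68 in the knockout and -6.61, -7.26 and -7.06 in the control, where 1 array was well above background (1.21 ± 0.24, unadjusted p = 0.000395). Cda, cytidine deaminase, read -1.75, -1.57 and -1.70 against -2.17, -2.30 and -2.25 (0.57 ± 0.15). Mxd1, an antagonist of Myc, read 0.46, 0.62 and 0.40 against 0.08, -0.24 and -0.25 (0.63 ± 0.18). Gabra3, a GABA receptor subunit, read -0.25, -0.71 and 0.27 against -1.32, -1.41 and -1.05 (1.03 ± 0.29), and Tacr3, the neurokinin B receptor, -3.47, -3.51 and -2.95 against -4.49, -4.16 and -4.97 (1.23 ± 0.30). In all 5 each knockout lay above each control, which the choice by p favours. The others were Clec1a (1.51 ± 0.35), Calcb (1.01 ± 0.26), Tex19.1, Palmd (0.94 ± 0.26), Plac1 (2.29 ± 0.65), Adgrv1 (0.61 ± 0.18) and the insulin receptor Insr (0.82 ± 0.24), whose probes disagreed in sign. Only 1 of 3 control arrays cleared the background for Clec1a and for Plac1, and 2 did for Tex19.1 and for Palmd. Under normexp background correction 8 of the 12, all but Cda, Mxd1, Gabra3 and Insr, changed to a value below 0.

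**Figure D5:**
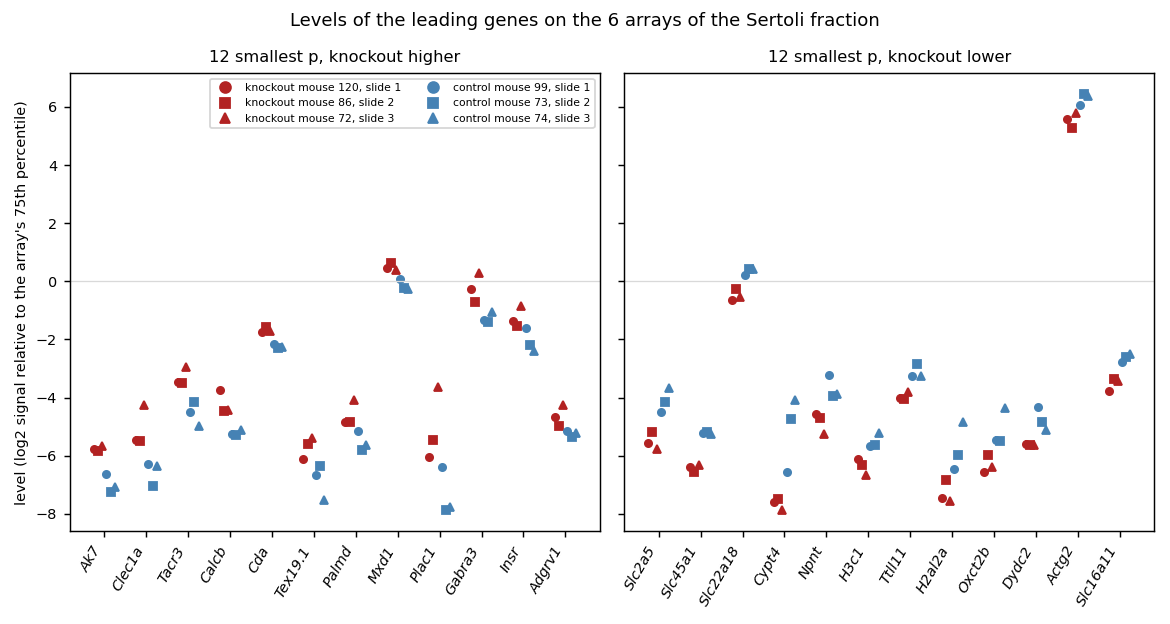
Level (vertical axis, log2 signal relative to the 75th percentile of the array) of the 12 genes with the smallest unadjusted p in each direction, chosen by these values, on the 6 arrays, with knockout in red, control in blue and a symbol for each slide. Most lie far below 0, that is, below the 75th percentile of their array, and Actg2 stands at 5.26 to 6.44.

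Genes that kept their sign on the 3 slides included brighter ones. Of all genes, 1728 (8.49%) were higher and 3842 (18.9%) lower on every slide. The 10 named per direction were taken only from genes well above background on all 6 Sertoli arrays, which favours brighter genes. Among the 10 of these with the largest smallest difference in the higher direction was Sfrp1, a secreted Wnt antagonist. It read 2.81, 2.34 and 2.76 in the knockout and 2.06, 1.03 and 1.81 in the control, a difference of 1.0 ± 0.37. Igfbp3, an IGF-binding protein, read 2.88, 2.49 and 2.67 against 2.14, 1.66 and 1.84, a difference of 0.80 ± 0.32. Bmp7, a ligand of the BMP family, read -2.33, -1.65 and -0.36 against -3.24, -2.62 and -1.84, which overlap between groups although the knockout of each slide was about 1 log2 unit above its control (0.91, 0.97 and 1.48). Gria4, Kcne3, Cadm3, Rarb, Akr1b7, Gabra3 and Calcb completed the 10, with differences of 0.83 to 1.12. In the lower direction were Slc2a5, Ldhc, Prm1, Cypt12, Des, the tenascin Tnc (-1.20 ± 0.94), Ly6k (-1.33 ± 0.41), Nppa (-0.95 ± 0.60), Mrgprg (-0.90 ± 0.73) and the interferon-induced Ifi27l2b, which read -1.67, -0.84 and -1.18 against -0.40, 0.94 and -0.29 (-1.31 ± 0.38). Some of these SEs are wide through the germ arrays. The SD of Nppa was 0.14 (knockout) and 0.21 (control) in the Sertoli fraction, against 1.12 and 1.22 in germ.

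The genes with the largest spread within groups were picked for that spread, so their variation within genotypes was set by the choice. Each mouse was on 1 slide only, so mouse and slide cannot be told apart. The 10 with the largest SD about the group means were taken only from genes well above background on all 6 Sertoli arrays. Of these 10, 8 were lowest on slide 2 in both the knockout and the control, and also in the knockout germ fraction. In the control germ fraction 7 of these 8 were lowest on slide 1. Of all genes, 3463 (17%) were lowest on slide 2 in both Sertoli groups. Gtf2h3, a subunit of the factor TFIIH, read -0.88, -3.36 and -0.72 in the knockout and -1.55, -5.84 and -0.46 in the control, and Pdia4, Rsl24d1, Sdf2l1, Acot2, Idh1, Cercam and Syt10 shared the low slide in both Sertoli groups. Trp53 also had its lowest Sertoli arrays there, while its lowest control germ array was on slide 1. For Slc4a7, a bicarbonate transporter, 5 arrays read 3.33 to 4.26 and that of mouse 74 read -3.52, and for Rab11a, a recycling endosome GTPase, 5 read 2.64 to 3.03 and mouse 74 -1.85. With slide as a fixed block, 750 genes had an unadjusted p under 0.05 (219 higher, 531 lower) and 0 passed after adjustment.

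The knockout effect in the Sertoli fraction differed from that in the germ fraction for 2 of the 20361 genes (0.00982%; interaction term, limma, adjusted p of 0.05). For both, the genotypes were close in the Sertoli fraction. Tas1r1, a subunit of the umami taste receptor, read -6.20, -5.91 and -5.88 in the knockout and -5.95, -6.05 and -4.76 in the control, and Mpzl2, an adhesion protein of the immunoglobulin family, -2.49, -2.15 and -2.03 against -2.02, -2.08 and -2.43.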

How the data were processed

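Gene expression was measured on 12 one-colour Agilent mouse arrays, of which the 6 Sertoli arrays were compared. Per the file headers, Agilent Feature Extraction 10.7.3.1 subtracted the background within each array to give the deposited intensity used here (processed signal). The deposited median spot and background intensity served for normexp, and the authors' deposited log2 table (median 8.29 in every column, probes in the order of the processed signal, Spearman's rho 1) as another alternative. The submitters' processing notes name limma.

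Control spots (1377) and outlier spots were left out, spots of a probe averaged, and each array's 75th percentile of log2 signal subtracted. Probes were named by RefSeq accession (26055 named, 13374 not). Limma 3.58.1 in R 4.3.3 fitted 4 group means over 12 arrays, with Benjamini-Hochberg adjustment over 20361 genes. The code was tested on simulated data. The number of arrays limits the precision. A fold bound sets the bright group against, per array, the higher of the dim probe's signal and the lowest signal well above background.

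Mouse numbers pair the fractions, which share the animal: their deviations correlated at 0.371 (mouse 120), 0.388 (86), 0.262 (72), -0.227 (99), -0.141 (73) and 0.636 (74).

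The members, the 33 gene lists and the tests were chosen with earlier results of these data known. Named were Trp73, Trp53 and Trp63; the 12 genes per direction with the smallest p; the 10 per direction with the largest smallest within-slide difference and the 10 with the largest SD; the 3 members of each list with the smallest p and every Sertoli marker, except a few genes that are not reported here; and the interaction's calls. The choices by within-slide difference and by SD were limited to genes well above background on all 6 Sertoli arrays. Provisional names were left out. Further list members were named after their values were seen. In every list, the choice by a small p favours genes whose groups do not overlap. Probe sequences were not used here.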

Additional observations from a re-analysis of the deposited data

Results flagged for a closer look

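For Tas1r1 and Mpzl2 the knockout effect differed between the fractions of the testis (interaction term, limma with Benjamini-Hochberg adjustment). The difference of effects, Sertoli minus germ, was 4.87 ± 0.52 (SE) for Tas1r1 and -3.29 ± 0.33 for Mpzl2, both at an adjusted p of 0.0166. In the germ fraction Tas1r1 read -5.82, -5.63 and -5.12 in the knockout and 0.31, -0.29 and -0.75 in the control, lower in 3 of 3 knockouts, while the Sertoli difference was -0.41 ± 0.37. Mpzl2 read -2.65, -2.26 and -2.20 in the knockout germ fraction and -5.86, -5.16 and -5.83 in the control, higher in 3 of 3 knockouts, while the Sertoli difference was -0.05 ± 0.23. The knockout germ values of both genes lay close to those of the Sertoli fraction. Leaving out 1 mouse kept Tas1r1 between 4.41 and 5.54 and Mpzl2 between -3.47 and -3.09; the adjusted p of Tas1r1 passed the threshold without mouse 120 (0.0445) or 74 (0.00201) and missed it without 86 (0.391), 72 (0.214), 99 (0.122) or 73 (0.317), and that of Mpzl2 passed only without mouse 120 (0.0285).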

How the results depend on the processing

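The count of genes passing between knockout and control in the Sertoli fraction was 0 under every alternative except without mouse 99, when it was 1 (range over left-out mice 0 to 1). The Sertoli against germ count in controls moved by less than 1.5 times under all alternatives run. With the mouse as a random replicate block the Sertoli comparison gave 0 genes, 15533 differed between the fractions of the controls, and the interaction gave 6 in place of 2; the block changed no call of a named gene in the Sertoli comparison at the adjusted threshold. At an unadjusted p under 0.05 it moved round spermatid members from 2 to 1, sugar supply from 3 to 2 and apoptosis from 2 to 1. The interaction count was 1 after quantile normalisation, 1 after median centring, 1 with the authors' deposited values, 0 with normexp, 0 without the mice titled het, 0 with the 8-month mice alone, 8 with a trended and robust prior, and 0 to 15 without 1 mouse. The cause of these changes was not tested. Where 1 mouse was left in a group, its spread was assumed to be that of the other groups.

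With normexp the difference between knockout and control changed sign for Ak7 (-1.16), Clec1a (-0.76), Tacr3 (-0.14), Calcb (-0.54), Tex19.1 (-1.06), Palmd (-0.88), Plac1 (-0.70), Adgrv1 (-0.84), Gria4 (-0.51), Cadm3 (-0.71), Akr1b7 (-0.60), Trp73 (-0.53), Trp53 (-0.30), Foxj1 (-1.21), Kit (-0.03), Tssk1 (-0.74), Alas2 (-1.18), Cxcl1 (-0.77), Nr0b1 (-1.28), Krt18 (-0.67), Cst11 (-1.28), Tek (-0.74), Mmp24 (-1.13), Mertk (-0.01), Mrc1 (-0.67), C1qc (-1.23), Rdh10 (-0.10) and Wwox (-0.23). Without the mice titled het it did so for Mrgprg (0.33), Trp53 (-0.77), Tekt1 (0.34), Hba-a2 (0.14), Isg15 (0.44), Aen (0.00), Cldn11 (-0.33), Gas6 (0.03), Aif1 (0.11), Nsdhl (-0.07), Col1a2 (0.06), Itga1 (-0.21) and Wwox (-0.05), and the control fraction difference changed sign for Trf (-0.50), Cldn11 (0.13) and Drd4 (-0.56). Without 1 mouse the ranges crossed 0 for Trp53 (-0.54 to 1.70), Trp63 (-0.72 to 0.01), Hba-a2 (-0.36 to 0.11), Ovch2 (-0.44 to 0.05), Aif1 (-0.45 to 0.09) and Insig1 (-0.93 to 0.16), and, between the fractions, for Trf (-0.18 to 0.38) and Drd4 (-0.01 to 0.71). The median of the elongating spermatid list stayed below 0 in all 22 settings (-1.43 to -0.13), as did those of the myoid (-0.62 to -0.26) and mitotic lists (-0.46 to -0.09). Counts of list members by setting were added after seeing the data.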

Other observations

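Probes measured in 1 genotype only were few in the Sertoli fraction. Of 39429 probes, 23434 were well above background on all 6 arrays. There were 9 probes above it on all 3 knockout and 0 control arrays, and 27 above it on all 3 control and 0 knockout arrays. Lowest on the same slide in all 4 groups of arrays were 200 genes on slide 1, 392 on slide 2 and 1049 on slide 3.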
